A study of Mus musculus with 8 samples.

Results

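The genes described here encode the aminoacyl-tRNA synthetases, 39 of the 24413 gene symbols counted. They were taken by name: 20 genes of cytosolic synthetase subunits, 3 genes of the proteins that hold a cytosolic synthetase complex together (Aimp1, Aimp2 and Eef1e1), and 16 genes of mitochondrial synthetases, whose symbols end in 2. Gars and Kars, counted with the cytosolic genes, serve both compartments. All 39 had enough counts to be tested. The libraries compare mouse plasmablasts, short-lived B cell descendants that divide and secrete antibody, with and without Jagn1, whose protein sits in the membrane of the endoplasmic reticulum (ER). Enriched B220+ spleen B cells (strain C57BL/6J) received 25 µg/ml of the bacterial product lipopolysaccharide over 4 days before CD22-CD138+ cells were sorted. The knockout group (4 libraries) came from Jagn1fl/fl mice with Mb1Cre+, a recombinase made from the B cell gene Cd79a. The control group (4 libraries) came from Jagn1fl/fl mice for which no Cre is listed, so the loss of Jagn1 and the presence of Cre cannot be told apart. The labels state 4 mice per genotype.

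A synthetase joins an amino acid to its tRNA, and the charged tRNA then delivers that amino acid to the ribosome. Cytosolic synthetases supply the ribosomes that make nearly all cell proteins, antibodies included. The mitochondrial enzymes are also encoded in the nucleus and supply the ribosomes inside mitochondria, which make a few respiratory chain subunits. Many cytosolic synthetase genes are known targets of ATF4, the transcription factor of the integrated stress response, a programme that ER stress or a shortage of amino acids sets off. Uncharged tRNA is itself the signal that the kinase GCN2 reads. ATF4 is known to bind a composite site, the C/EBP-ATF response element (CARE), together with C/EBP proteins.

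CARE letters stood in the start regions of 5 cytosolic synthetase genes, which are shown because these genes belong to the set with the higher levels described below. The RefSeq promoter table (build GRCm38.p6, the assembly of mm10) gives 250 bases before and 50 after a transcript start, and 30 of the 39 genes matched it. Of their 32 windows, 16 have the RefSeq gene start as their start, so matches and positions depend on the start the table gives. Not matched were Cars, Hars, Lars, Nars, Rars, Vars, Wars, Hars2 and Pars2. The letters TGATGNAA, where N is any base, were searched on both strands (TTNCATCA on the gene's own strand when reversed). They were found in 5 of 13 cytosolic genes, 0 of 3 scaffold genes and 0 of 14 mitochondrial genes, and in 3.97% of all 32851 windows of this length in the table. For each gene the 30 bases around the match nearest the start are printed 5′ to 3′ on the gene's strand, with the match in capitals.
Aars: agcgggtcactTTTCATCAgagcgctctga
Gars: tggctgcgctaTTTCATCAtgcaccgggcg
Tars: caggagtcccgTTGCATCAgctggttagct
Iars: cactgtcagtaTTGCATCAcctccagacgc
Yars: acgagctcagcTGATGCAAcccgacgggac

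These stretches lie at chr8:111033840-111033869 for Aars, chr6:55037960-55037989 for Gars, chr15:11399655-11399684 on the minus strand for Tars, chr13:49682126-49682155 for Iars and chr4:129189895-129189924 for Yars. These matches begin at -30 and -15 from the table's start in Gars and Tars. Counting the start base as 1, that in Aars begins at position 10, that in Iars at 8 and that in Yars at 4. Eprs and Sars, the called genes of highest fold change, held no match in their windows, which says only that these letters are not there. Their 250 bases before the start are shown for comparison, at chr1:185362794-185363043 for Eprs and chr3:108445260-108445509 on the minus strand for Sars.
Eprs: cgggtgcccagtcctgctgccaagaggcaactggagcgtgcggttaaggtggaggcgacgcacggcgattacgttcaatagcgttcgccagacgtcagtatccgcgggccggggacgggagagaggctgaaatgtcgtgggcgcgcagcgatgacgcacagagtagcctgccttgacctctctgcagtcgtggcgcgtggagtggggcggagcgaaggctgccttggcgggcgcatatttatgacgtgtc
Sars: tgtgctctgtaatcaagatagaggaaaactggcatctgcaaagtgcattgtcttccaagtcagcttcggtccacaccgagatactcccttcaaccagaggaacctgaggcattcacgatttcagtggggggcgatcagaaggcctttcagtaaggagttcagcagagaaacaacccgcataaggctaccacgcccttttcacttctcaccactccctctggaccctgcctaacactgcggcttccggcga

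Another 2 motifs were searched on both strands of the same windows. The cAMP response element, TGACGTCA, was in none of the 30 genes and in 1.79% of all windows. The palindrome of NRF1, a nuclear respiratory factor, was in 3 of 13 cytosolic, 1 of 3 scaffold and 2 of 14 mitochondrial genes and in 4.603% of all windows. The median GC content was 56.0% in the cytosolic and 58.0% in the mitochondrial windows, against 52.7% in all windows. A match is a description of letters and not evidence of binding.

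Before the values of the members, the libraries need a short account. Each file gave raw read counts from a kit that reads 3′ ends, with 5882912 to 10066661 counts a library. Jagn1 gave 19, 35, 16 and 99 counts in control replicates 1 to 4 and 2, 1, 1 and 1 in knockout replicates 1 to 4, so each library matched its label. Control replicates 1 and 4 stood apart, with root mean square deviations (log2 CPM, from their group) of 0.594 and 0.581, where the other 6 libraries had 0.324 to 0.432. Of the defining markers of the sorted cells, Sdc1 (CD138) was present at 33.0 to 56.7 CPM, the count scaled to a common library total, in the control and at 16.8 to 23.3 CPM in the knockout, and Cd22 was at 2.53 to 10.8 CPM in all libraries. Summed over 9 plasmablast markers the level was 26981 to 34142 CPM in the control and 21216 to 27186 CPM in the knockout. The sum is carried mainly by Mzb1 (mean 20622 and 18349 CPM), which was not called. In the test described below 4 of the 9 were lower, against 3.19% of all genes tested. These were Sdc1 (0.48-fold), Slamf7 (0.51), Jchain (0.54) and Tnfrsf17 (0.22). None of the rest was called, and Derl3 alone had a log2 fold change above 0 (0.29). The part of these marker differences in the results on synthetases was not tested. B cell markers (6 genes) summed to 854 to 1097 CPM in the control and 788 to 894 CPM in the knockout, with 1 of 5 tested lower. That gene was Cd79a, from which the Cre is made, at 220 to 396 CPM in the control and 116 to 173 CPM in the knockout (log2 fold change -1.04 ± 0.19, edgeR adjusted p = 0.00313). T cell markers (9 genes) summed to 15.2 to 24.3 CPM and 11.9 to 16.7 CPM. For 11 myeloid markers the sums were 1.27 to 7.02 CPM and 2.89 to 4.81 CPM, with Lyz2, Cd14, S100a8, S100a9, Mpo and Elane at 0 in all 8 libraries. Erythroid markers (8 genes) summed to at most 0.240 CPM and NK cell markers (6 genes) to at most 2.53 CPM in any library.

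Several cytosolic synthetase transcripts rose in the knockout, and no mitochondrial one passed the test. Of the 20 cytosolic genes, 4 rose and 0 fell at an adjusted p under 0.05 (edgeR's quasi-likelihood test, Benjamini-Hochberg adjustment over 9904 genes), against 2.54% of all genes tested that rose and 3.19% that fell. Those 4 were Eprs, Nars, Sars and Aars. At an unadjusted p under 0.05, 10 of the 20 were higher and none was lower, against 8.3% of all genes higher and 18% in either direction. The median log2 fold change of the 20 genes was 0.35, against -0.01 over all genes tested, and 18 of the 20 values were above 0, against 48.7% of all genes. With DESeq2, 6 cytosolic genes rose (3.72% of all genes tested), and with limma-voom 8 (4.85%). Of the 16 mitochondrial genes 0 passed in either direction, also with DESeq2 and with limma-voom, and 0 had an unadjusted p under 0.05. Their median log2 fold change was -0.15, with 6 of 16 values above 0. The sets were not tested against each other as sets.

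**Figure D1:**
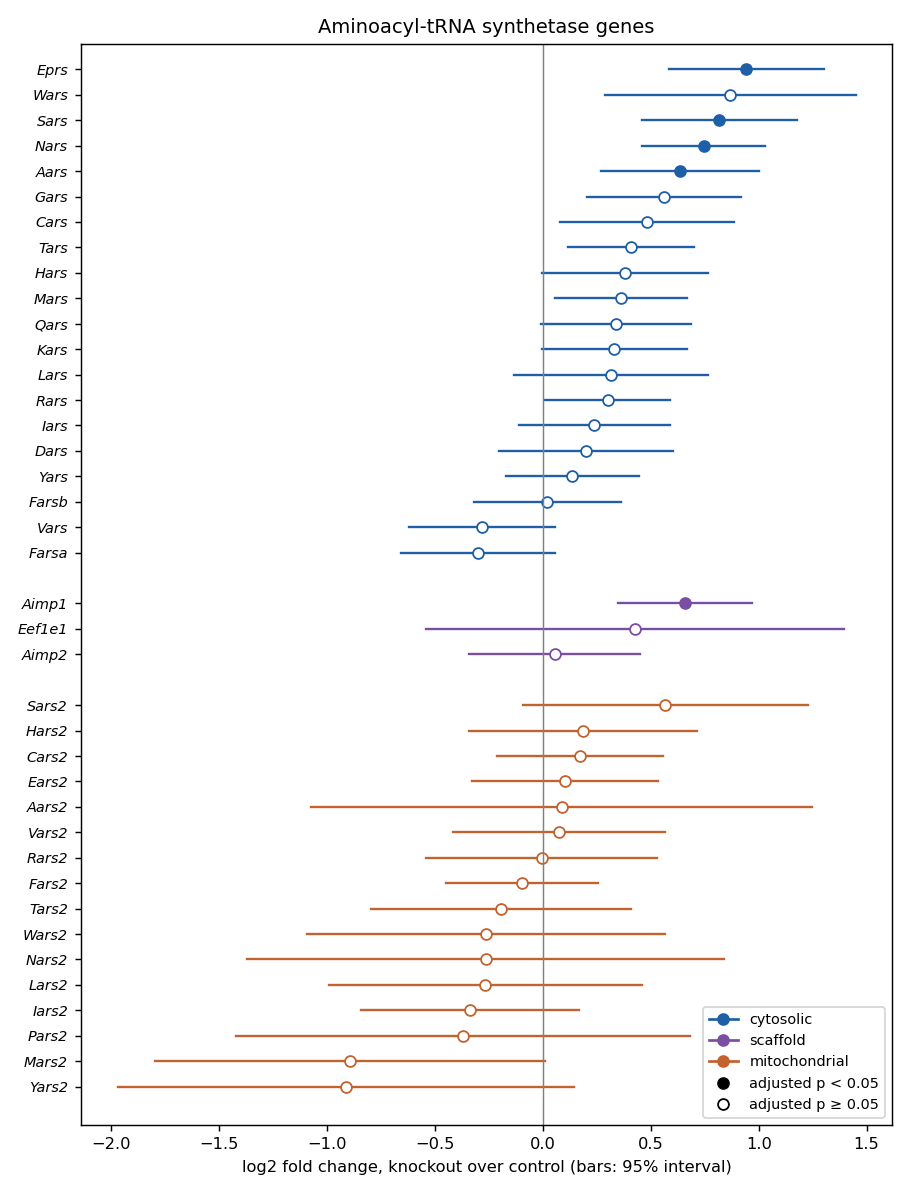
Fitted log2 fold change (knockout over control, x axis) of each of the 39 genes, with its 95% interval as a bar, ordered by value within the cytosolic, scaffold and mitochondrial sets. Filled points passed an adjusted p of 0.05: 4 cytosolic genes and Aimp1, all to the right of 0, while the intervals of all 16 mitochondrial genes include 0.

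Summed and mean levels show how the sets differed library by library. The 20 cytosolic genes together stood at 4013, 3824, 3744 and 3365 CPM in control replicates 1 to 4 and at 5315, 5424, 5073 and 5338 CPM in knockout replicates 1 to 4. Every knockout library lay above every control library. The 16 mitochondrial genes together stood at 286, 257, 246 and 248 CPM in the control and 271, 252, 244 and 253 CPM in the knockout, and here the groups overlapped. This sum is carried by the more abundant genes. The mean of log2 CPM over the 16 genes (prior count of 2), in which each gene counts equally, was 3.376, 3.456, 3.308 and 3.297 in the control and 3.171, 3.296, 3.176 and 3.282 in the knockout. By this measure every knockout library lay below every control library. The closest were control replicate 4 at 3.2970 and knockout replicate 2 at 3.2961, which is nearly a tie. The ratio of cytosolic to mitochondrial counts, which does not depend on how libraries are scaled, was 14.02, 14.9, 15.2 and 13.6 in the control and 19.6, 21.5, 20.8 and 21.1 in the knockout. Nars, Eprs and Sars supplied 40.0% of the cytosolic sum in the control. Without the 4 genes that rose, the remaining 16 cytosolic genes summed to 2151 to 2287 CPM in the control and 2481 to 2655 CPM in the knockout, still without overlap. These sums and means are a description, and no test was made of them. In bulk RNA, fewer cells of a type and less RNA per cell cannot be told apart.

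**Figure D2:**
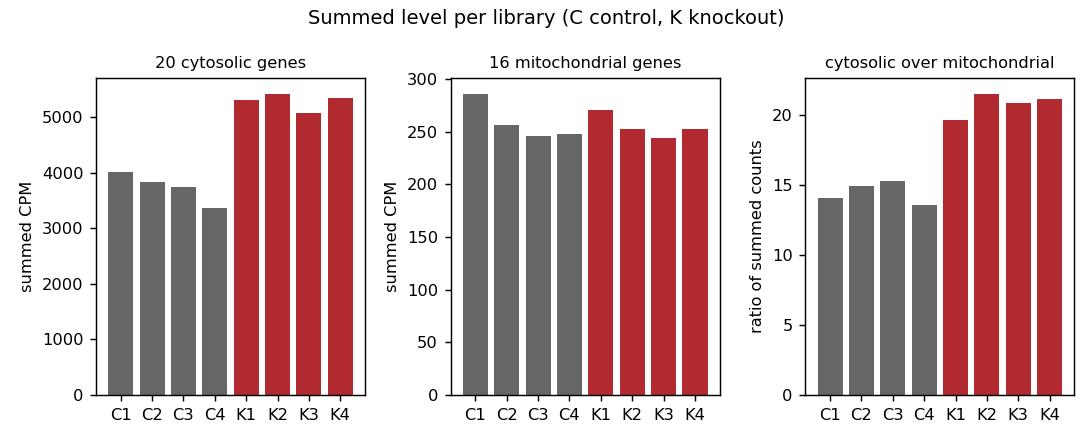
Summed CPM of the 20 cytosolic genes (left) and the 16 mitochondrial genes (middle), and the ratio of their summed counts (right), for control (C1 to C4, grey) and knockout libraries (K1 to K4, red). The cytosolic bars and the ratio are higher in every knockout library than in any control library, while the mitochondrial bars overlap.

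Eprs, which encodes the bifunctional enzyme that charges both glutamate and proline tRNAs, had the largest fitted change of the set. GENCODE M21 (GRCm38) places it at 185363044 to 185428360 of chromosome 1, plus strand. Its level was 614, 449, 482 and 343 CPM in control replicates 1 to 4 and 937, 1017, 876 and 798 CPM in knockout replicates 1 to 4. All 4 knockout libraries were higher than any control library, a separation seen upward in 6.45% of all genes tested. The rise was 1.92-fold (95% interval 1.5 to 2.46), a log2 fold change of 0.94 ± 0.17 (SE), with an edgeR adjusted p of 0.00307.

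Nars and Sars, which charge asparagine and serine tRNAs, also rose with clear separation of the groups. Nars (chromosome 18, 64499647 to 64516652, minus strand) was the most abundant member by CPM, at 702, 669, 713 and 564 CPM in the control and 1022, 1118, 1043 and 1253 CPM in the knockout. The fitted log2 fold change was 0.74 ± 0.13 (edgeR adjusted p = 0.00343), or 1.68-fold. Sars (chromosome 3, 108424865 to 108445209, minus strand) was at 457, 382, 367 and 245 CPM in the control and 645, 687, 629 and 596 CPM in the knockout. The fitted log2 fold change was 0.82 ± 0.17 (edgeR adjusted p = 0.00820), or 1.76-fold. The lowest control value of Eprs, Nars and Sars was in each case that of control replicate 4, a library that stood apart. The calls of these 3 genes were kept under all 18 alternatives run, with adjusted p of at most 0.0206, 0.0195 and 0.0446.

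Aars, which charges alanine tRNA, passed more narrowly. It was at 34.8, 38.0, 30.9 and 27.4 CPM in the control and 56.0, 52.8, 44.6 and 49.9 CPM in the knockout, again without overlap, with a log2 difference of 0.63 ± 0.17 (edgeR adjusted p = 0.0414). The call was lost when any library but control replicate 1 was left out (adjusted p 0.0524 to 0.141). It was also lost without control replicates 1 and 4 together (0.0600), without a count filter (0.0507) and after thinning to the smallest total (0.0628), and it held under 7 of 18 alternatives. Its counts are also uncertain, because 1326 exon bases at its 3′ end (chromosome 8, 111033144 to 111057664, plus strand) are shared on the same strand with Exosc6, an exosome subunit gene. Exosc6 itself had a log2 difference of -0.25 ± 0.24 (edgeR adjusted p = 0.650).

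**Figure D3:**
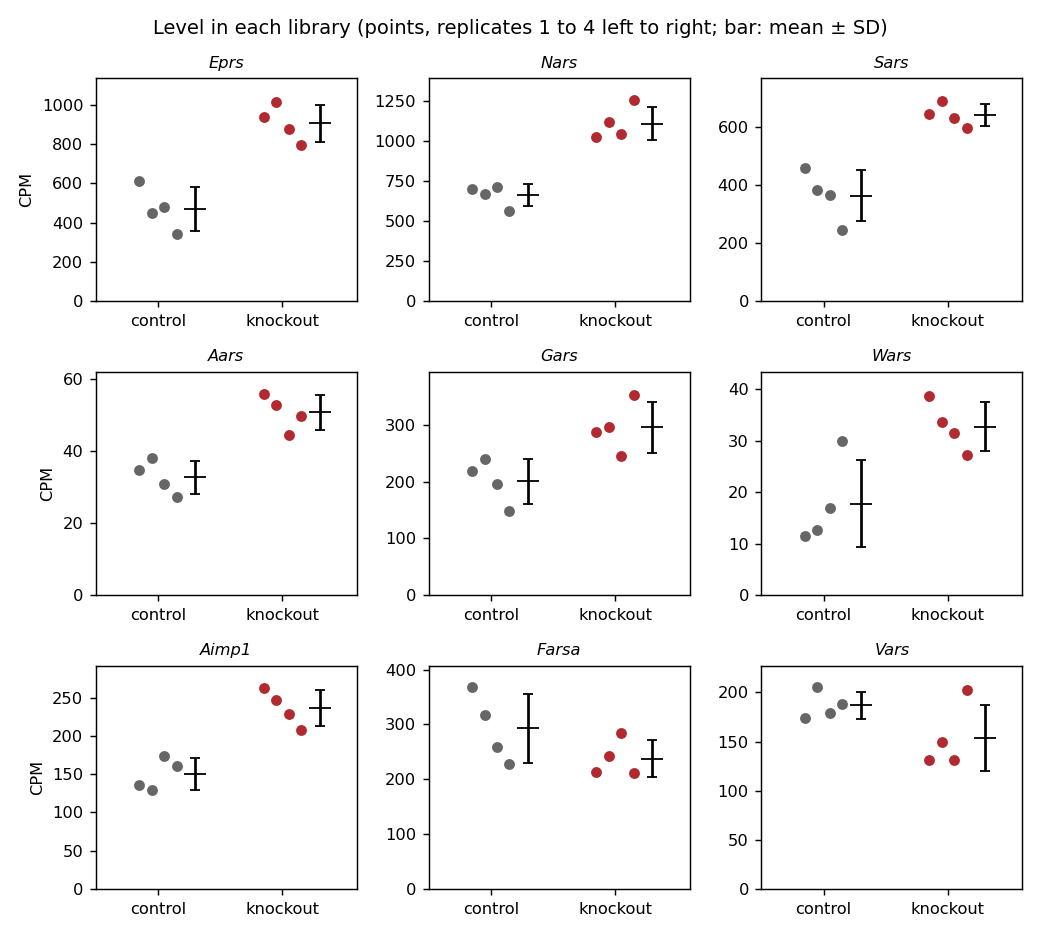
CPM of 9 members in each library (points, replicates 1 to 4 from left to right, grey control, red knockout) with the group mean and SD beside them, each panel on its own axis from 0. The groups do not overlap for Eprs, Nars, Sars, Aars, Gars and Aimp1, while Wars overlaps through control replicate 4, and Farsa and Vars overlap with lower knockout means.

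The next genes in order did not pass the test but had the same direction. Gars, whose product charges glycine tRNA in the cytosol and in mitochondria, was at 219, 239, 195 and 148 CPM in the control and 287, 297, 245 and 354 CPM in the knockout. The groups did not overlap, and the log2 fold change was 0.56 ± 0.17 (edgeR adjusted p = 0.0649), with a call under 4 of 18 alternatives (adjusted p 0.0234 to 0.203 over the 18). Kars, the other gene that serves both compartments, for lysine, was at 36.4, 42.9, 41.2 and 43.0 CPM in the control and 55.2, 47.9, 55.1 and 47.5 CPM in the knockout. Its groups did not overlap either, with a log2 difference of 0.33 ± 0.16 (edgeR adjusted p = 0.284). This upward separation was seen in 7 of the 20 cytosolic genes, Gars and Kars among them, and in 6.45% of all genes tested.

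Wars, for tryptophan, had the second largest fitted value and, relative to its mean, the widest control spread of the cytosolic genes. It stood at 11.5, 12.7, 17.0 and 29.99 CPM in the control and 38.7, 33.6, 31.5 and 27.3 CPM in the knockout. Control replicate 4 overlapped the knockout, and the log2 fold change of 0.87 ± 0.27 gave an edgeR adjusted p of 0.0810. Without that library the log2 fold change was 1.24 (adjusted p = 0.00158), and without control replicates 1 and 4 it was 1.14 (adjusted p = 0.00212). Wars was called under 5 of 18 alternatives. Tars, for threonine, also missed the threshold (0.41 ± 0.14, edgeR adjusted p = 0.106). All 4 of its knockout values, 282 to 296 CPM, lay above all 4 control values, 185 to 257 CPM. Tars passed under 3 of 18 alternatives, among them that without control replicate 4 (adjusted p = 0.0283). Cars, for cysteine, had control replicate 1 at 119 CPM against 59.8 to 75.6 CPM in the other controls and 106 to 121 CPM in the knockout, and passed only when that library was left out, alone (adjusted p = 0.00357) or with control replicate 4 (0.00786), and with limma-voom (0.00986).

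The remaining cytosolic genes with values above 0 did not pass. Hars, Mars, Qars, Lars, Rars, Iars, Dars and Yars, for histidine, methionine, glutamine, leucine, arginine, isoleucine, aspartate and tyrosine, had log2 fold changes from 0.14 for Yars to 0.38 for Hars. Only the intervals of Mars (0.06 to 0.67) and Rars (0.01 to 0.59) left out 0, before any adjustment. Lars varied widely among controls, at 187, 329, 297 and 442 CPM in the control against 345 to 483 CPM in the knockout. At its 3′ end, Mars shares 68 exon bases with Ddit3, a stress gene on the opposite strand whose log2 fold change was 1.54 ± 0.24, and how the counting treated strands is not stated in the labels.

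Farsa, for phenylalanine, and Vars, for valine, were the only cytosolic genes with fitted values below 0, and the intervals of both include 0. Farsa and Farsb encode the 2 kinds of subunit of the same phenylalanine enzyme. Farsa was at 368, 316, 258 and 228 CPM in the control and 213, 242, 284 and 212 CPM in the knockout, with a log2 fold change of -0.30 ± 0.17 (95% interval -0.66 to 0.06, edgeR adjusted p = 0.377). Farsb was at 125 to 182 CPM in the control and 127 to 182 CPM in the knockout, with a log2 fold change of 0.02 ± 0.16. Vars was at 174, 206, 180 and 188 CPM in the control and 131, 150, 131 and 202 CPM in the knockout, with a log2 fold change of -0.28 ± 0.16 (95% interval -0.62 to 0.06, edgeR adjusted p = 0.382). Knockout replicate 4 was the only knockout library of Vars inside the control range. The upper ends of both intervals lie below the fitted values of all 4 genes that rose.

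Genes that rose were found inside and outside the multisynthetase complex. This complex joins 8 of the cytosolic enzymes (Dars, Eprs, Iars, Kars, Lars, Mars, Qars and Rars) to the 3 scaffold proteins. Of these 8 genes 1 rose, Eprs, and their median log2 value was 0.32. Of the 12 genes outside it 3 rose, and their median was 0.45. By the fold of the catalytic domain, 0 of 9 class I genes and 3 of 10 class II genes rose, with medians of 0.31 and 0.39, and Eprs carries a domain of each class. Over all genes tested 2.54% rose. At an unadjusted edgeR p under 0.05, 4 of the 9 class I and 5 of the 10 class II genes were higher. By the same measure 3 of the 8 genes of the complex and 7 of the 12 outside it were higher, against 8.3% of all genes. The difference between these subgroups was not tested.

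The scaffold genes differed among themselves in level and change. Aimp1, which encodes the scaffold protein p43 (chromosome 3, 132660499 to 132684370, minus strand), was at 136, 129, 174 and 161 CPM in the control and 263, 247, 229 and 208 CPM in the knockout. It rose without overlap, with a log2 difference of 0.66 ± 0.15 (edgeR adjusted p = 0.0131). The call was lost when control replicate 2 or either of knockout replicates 1 and 2 was left out (adjusted p 0.0595 to 0.0624). Aimp2, the core scaffold gene, was at 65.5, 45.3, 40.1 and 39.6 CPM in the control and 51.6, 52.3, 46.7 and 47.0 CPM in the knockout, a log2 fold change of 0.05 ± 0.19. Control replicate 1 was the highest library and the other 3 controls were the lowest. On the opposite strand Aimp1 shares 163 exon bases with Tbck and Aimp2 shares 487 with Eif2ak1. Eef1e1, the third scaffold gene, had 20, 16, 14 and 46 counts in the control and 34, 24, 43 and 20 counts in the knockout, too few for a narrow interval (log2 fold change 0.43, 95% interval -0.54 to 1.40).

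The mitochondrial genes were measured at lower counts, which limits what can be said of each. Their median control level was 10.5 CPM, against 156 CPM for the cytosolic genes, and their median standard error was 0.30 log2 units, against 0.17. CPM values were not divided by gene length, since the kit counts 1 tag per transcript end. The 7 mitochondrial genes whose standard error was no larger than the largest in the cytosolic set (0.27) were Cars2, Ears2, Fars2, Hars2, Iars2, Rars2 and Vars2. Their log2 fold changes ran from -0.34 for Iars2 to 0.19 for Hars2, with a median of 0.07, and 0 of them were called. For Fars2, the most abundant, the level was 60.3, 43.5, 57.5 and 54.2 CPM in the control and 57.7, 50.8, 45.2 and 47.7 CPM in the knockout, and its 95% interval of -0.45 to 0.25 lies below the fitted values of the 4 cytosolic genes that rose. Cars2 had a 95% interval of -0.21 to 0.56 and Ears2 of -0.33 to 0.53. On the opposite strand Iars2 shares 2034 exon bases with Rab3gap2, Fars2 501 with Nrn1 and 115 with Lyrm4, and Vars2 465 with Gm20483. Cars2 shares 422 with Naxd, Hars2 195 with Hars and Ears2 89 with Ubfd1. How the counting treated strands is not stated in the labels.

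Among the mitochondrial genes with few counts the smallest p belonged to Mars2, Yars2 and Sars2. Mars2, for methionine, had 25, 34, 31 and 38 counts in the control and 18, 17, 14 and 20 in the knockout, the only member whose 4 knockout values (1.84 to 2.44 CPM) lay below all control values (3.51 to 5.48 CPM), a separation seen downward in 6.64% of all genes tested. Its log2 fold change was -0.89 ± 0.42 (edgeR adjusted p = 0.283). Yars2, for tyrosine, had 25, 32, 21 and 22 counts in the control and 10, 13, 12 and 20 in the knockout (log2 fold change -0.91 ± 0.50, edgeR adjusted p = 0.360). Sars2, for serine, was at 7.02, 5.64, 5.01 and 6.23 CPM in the control and 12.8, 8.05, 6.03 and 8.66 CPM in the knockout, the highest fitted value of the mitochondrial set at 0.57 ± 0.31 (edgeR adjusted p = 0.364). For Sars2 the highest control library and the lowest knockout library overlapped. Lars2, Tars2, Wars2, Nars2 and Pars2 had log2 fold changes from -0.37 for Pars2 to -0.19 for Tars2, and Aars2 of 0.09 with a 95% interval of -1.08 to 1.25.

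Partner genes for the same amino acid can be compared inside each library. For 13 amino acids the set holds a cytosolic gene and a mitochondrial gene with the same symbol followed by a 2. The log2 ratio of their counts (0.5 added to each) needs no library scaling. Genes were paired by symbol only, so Eprs was not paired with Ears2 or Pars2, nor Farsa and Farsb with Fars2. Those genes share amino acids too, and their ratios were not computed. The mean ratio was higher in the knockout for 12 of the 13 pairs and lower for Vars and Vars2, with a median difference of 0.59 log2 units. These directions repeat in part the cytosolic values above 0 given earlier. In 2 pairs all 4 knockout ratios lay above all 4 control ratios, and 0 lay below. The share of such pairs among other genes was not computed. Of single genes tested, 6.45% were separated upward and 6.64% downward. For Mars over Mars2 the log2 ratio was 6.06, 5.35, 5.61 and 5.89 in the control and 6.85, 6.85, 6.95 and 7.14 in the knockout. For Yars over Yars2 it was 5.22, 4.73, 5.16 and 5.74 in the control and 6.48, 6.03, 6.38 and 5.97 in the knockout. In both pairs the mitochondrial gene had the larger fitted value in size: 0.36 and -0.89 for Mars and Mars2 and 0.14 and -0.91 for Yars and Yars2.

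The exact two-sided permutation p of these 2 pairs was 0.0286, the smallest that 4 against 4 libraries can give, and no other pair of the 13 was under 0.05. These p-values are not adjusted. Of the genes that rose, Eprs was in no pair. For the partners of the others, the log2 ratio of Nars over Nars2 differed by 0.93 (8.89, 8.16, 8.28 and 7.16 in the control, 8.54, 8.97, 9.31 and 9.39 in the knockout, exact permutation p = 0.0571). That of Aars over Aars2 differed by 0.65 (exact permutation p = 0.2) and that of Sars over Sars2 by 0.33 (exact permutation p = 0.343). Wars over Wars2 differed by 1.18 (exact permutation p = 0.0571). These mitochondrial partners had few counts. Nars2 had 10, 14, 16 and 40 in the control and 20, 15, 12 and 15 in the knockout. Aars2 had 16, 14, 19 and 14 in the control and 8, 24, 13 and 23 in the knockout. Wars2 had 22, 33, 65 and 57 in the control and 23, 43, 37 and 42 in the knockout. All 3 overlapped between the groups. A p above the threshold does not show that the partners changed alike. Without control replicate 4, 5 pairs were separated upward, and without knockout replicate 1 also 5. Without control replicates 1 and 4, an alternative chosen after seeing the data, it was 6. Leaving out a library cannot undo a full separation, so these counts could only stay or rise and do not bear on stability.

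**Figure D4:**
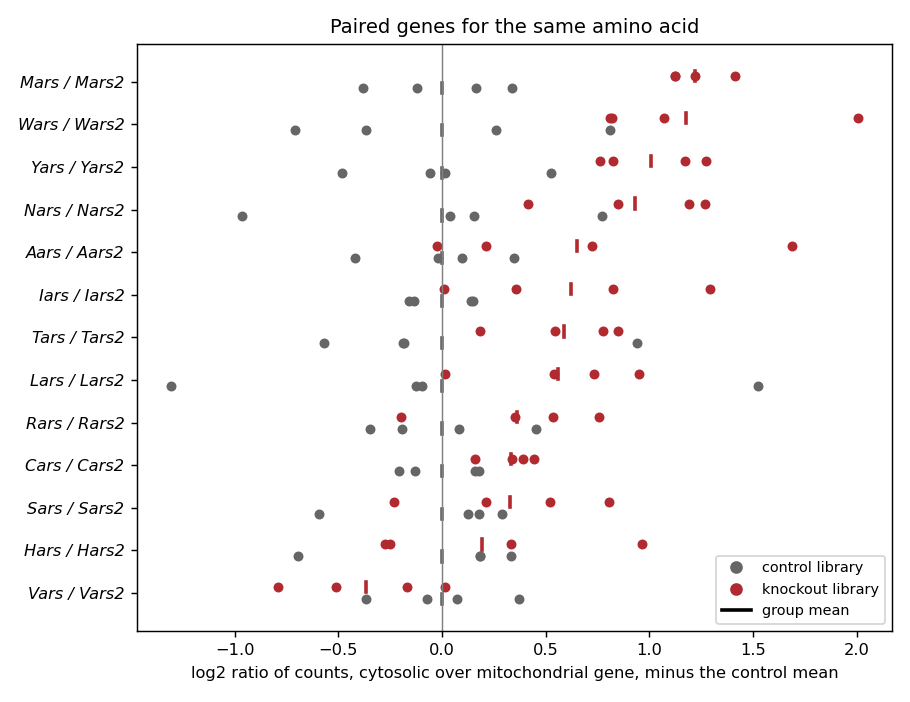
Log2 ratio of counts of the cytosolic over the mitochondrial gene for the 13 pairs matched by symbol, 1 point per library, set relative to the control mean of the pair, with group means as short bars. Red knockout means lie to the right of grey control means in 12 pairs, but the points of the groups separate fully only for Mars and Yars.

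Genes that act beside the synthetases were counted list by list, and outside the ATF4 targets each list gave 0 or 1 call. Over all genes tested 2.54% rose and 3.19% fell, so a short list can give 0 calls at that share. In the list of charging partners (tRNA hydrolases, mitochondrial amidation and formylation enzymes, selenocysteine synthesis, editing proteins and Tarsl2) 0 of 12 tested genes passed, and the median log2 value was -0.04. The smallest p there was that of Ptrh2, a peptidyl-tRNA hydrolase gene (0.55 ± 0.24, edgeR adjusted p = 0.232). Among 17 genes of tRNA maturation and export 1 rose and 0 fell. That gene was Xpot, which encodes exportin-t, the carrier of tRNAs out of the nucleus. It was at 23.2, 31.1, 34.3 and 32.8 CPM in the control and 70.6, 80.1, 67.7 and 83.1 CPM in the knockout, a log2 difference of 1.31 ± 0.17 (edgeR adjusted p = 0.000280), which is above the fitted value of every synthetase gene. The difference between them was not tested.

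Elongation factors serve the ribosome, and only some of them bring charged tRNAs to it. The cytosol and mitochondria use separate proteins for this. Of the 5 cytosolic genes 1 rose, Eef1b2, a nucleotide exchange factor gene, from 1630 ± 282 to 2490 ± 228 CPM (SD, n = 4 each), with a log2 difference of 0.61 ± 0.15 (edgeR adjusted p = 0.0227). Of the 4 mitochondrial genes 0 passed, with Tufm having the smallest p (-0.23 ± 0.19, edgeR adjusted p = 0.605). In the list for sensing of uncharged tRNA 0 of 3 passed. Eif2ak4, which encodes GCN2, had a log2 fold change of -0.10 ± 0.30, and Impact, an inhibitor of GCN2 activation, one of 0.52 ± 0.22 (edgeR adjusted p = 0.225).

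Reference genes of the ATF4 programme that are not synthetases had a higher median change than the synthetases. Of 12 such genes 10 rose and 0 fell, and the median log2 value was 1.44, against 0.35 for the cytosolic and -0.15 for the mitochondrial synthetases. The smallest p belonged to Chac1, a glutathione-degrading enzyme gene (1.63 ± 0.17), Slc7a11, the cystine transporter gene (3.10 ± 0.35), and Trib3, a pseudokinase gene (2.66 ± 0.30), with edgeR adjusted p of 4.35e-05, 7.27e-05 and 0.000121. The list holds Atf4 itself and 11 genes named as its known targets, and the rise of the programme in these libraries was already known when the list was made. Atf4, 1 of the 2 that did not pass, was at 2268, 1462, 1279 and 849 CPM in the control and 2295, 2697, 2439 and 2188 CPM in the knockout (0.72 ± 0.22, edgeR adjusted p = 0.0787). Control replicate 1 was the highest control for Atf4, Eprs and Sars, and control replicate 4 the lowest. The part of that spread in the results was not tested.

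**Figure D5:**
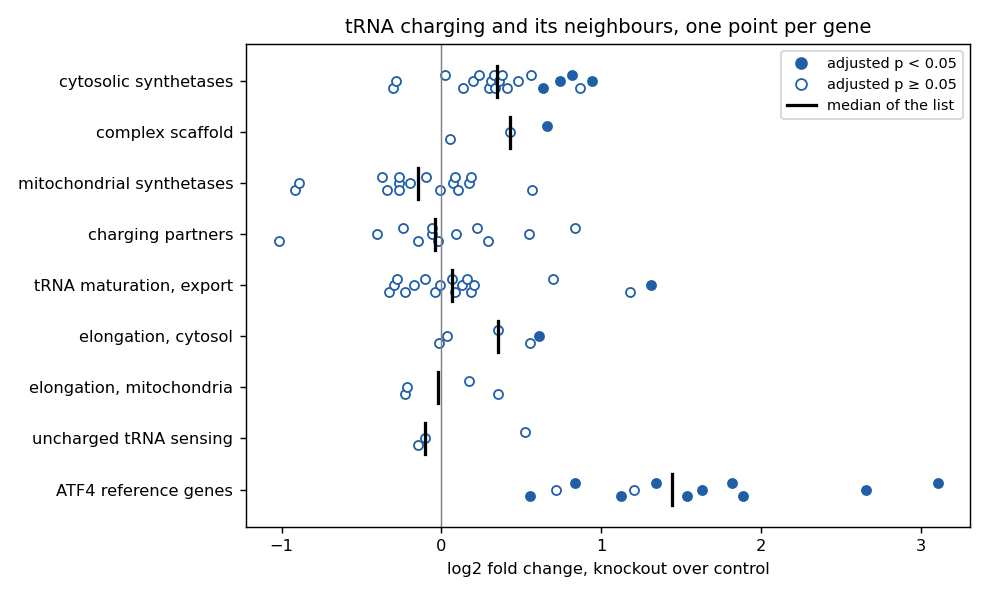
Fitted log2 fold change (x axis) of each tested gene, 1 point per gene, in the 3 synthetase sets and in 6 lists of neighbouring genes, with filled points for an adjusted p under 0.05 and a bar at the median of each list. The cytosolic synthetases centre on 0.35 and the ATF4 reference genes on 1.44, while the mitochondrial synthetases and the mitochondrial elongation factors lie around 0.

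Within the cytosolic set, the CARE letters stood in genes of small and of larger fitted change. The 5 genes with a match had log2 fold changes from 0.14 (Yars) to 0.63 (Aars), with a median of 0.41 and 1 of 5 called. The 8 matched genes without it ran from -0.30 (Farsa) to 0.94 (Eprs), with a median of 0.33 and 2 of 8 called. Over all genes tested 2.54% rose. Cytosolic genes with no window in the promoter table, the called Nars among them, are in neither group. Iars, which has a match, had a log2 difference of 0.24 ± 0.16 (edgeR adjusted p = 0.498). No test was made of this comparison, and the window covers only 300 bases around a start.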

How the data were processed

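RNA of sorted plasmablasts was made into QuantSeq 3′ mRNA-Seq (FWD) libraries, per the labels' protocols. The authors deposited 1 file of raw counts per sample, with gene symbols as rows. The submitters' processing notes name TopHat2 2.1.1, HTSeq 0.6.1, BWA 0.7.12, SAMtools 1.3.1 and the mm10 build. Which annotation and which strand option served for counting, and what each tool did, was not found in the labels.

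Genes were filtered with filterByExpr (minimum count 10, minimum total 15), leaving 9904, scaled with TMM factors and tested with edgeR 4.0.16 (R 4.3.3), two-sided quasi-likelihood F-tests on robust fits whose only term was group. The SE was derived from the fold change and its F value, and 95% intervals use the fit's degrees of freedom. CPM uses TMM-scaled totals. Cultures are not tied to single mice in the labels, so the p-values reflect sample-to-sample spread. The fitting step was tested on simulated counts. Pairs of libraries within a group all differed by more than counting noise (chi-square per degree of freedom 6.60 to 94.2). A count of 0 allows 0.292 to 0.483 CPM (floor of 3 counts, for counting error only).

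The members, the lists and the tests were chosen with earlier results of these data known. Named genes: every member, with values by library for the 6 cytosolic and 3 mitochondrial members of smallest p, the 2 of each with the lowest fold change, Gars, Kars, the scaffold genes and the partners of the first 6, and from each neighbouring list up to 3 called genes, or the gene of smallest p. Other genes with values by library (Tars, Cars, Lars, Fars2, Atf4) were chosen after their values were seen. Alternatives were DESeq2 1.42.0, limma-voom (limma 3.58.1), a replicate block, non-robust fits, other filters and scalings, leaving out each library and, added after seeing the data, leaving out control replicates 1 and 4 or thinning to 5882912 counts. A gene of a neighbouring list and a promoter stretch are not reported here.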

Additional observations from a re-analysis of the deposited data

Results flagged for a closer look

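In 2 of the 78 groups of 4 libraries examined (39 genes in 2 groups) a single library lay far from the other 3, and chance alone gives such a gap to about 1 in 20 groups. Hars was at 122 CPM in knockout replicate 1, against 81.9 to 83.4 CPM in the other knockout libraries. Mars2 was at 1.84 CPM in knockout replicate 3, against 2.40 to 2.44 CPM in the other knockout libraries, a gap of a few counts.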

How the results depend on the processing

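The count of cytosolic genes that rose was 4, and 3 to 6 when 1 library was left out. It was 6 with DESeq2, 8 with limma-voom, 3 with a replicate block and 5 without a count filter. After thinning it was 3, and without control replicates 1 and 4 it was 6 (both added after seeing the data). Of all genes tested 568 were called, 858 with DESeq2, 1070 with limma-voom, 270 to 892 when 1 library was left out and 901 without control replicates 1 and 4. The count of scaffold genes was 0 to 1 when 1 library was left out. The count of separated pairs was 2 to 5 then, and 6 without control replicates 1 and 4, a count that cannot fall with fewer libraries. No mitochondrial gene passed under any of the 18 alternatives run, and no cytosolic gene was called lower under any. The values of 9 genes changed sign, none of them called. Most were near 0, but Pars2, Nars2 and Wars2 had -0.37, -0.26 and -0.26 with all libraries. Farsb ran from -0.085 to 0.11 when 1 library was left out and was -0.079 without control replicates 1 and 4, and Aimp2 ran from -0.037 to 0.25. Aars2 ran from -0.19 to 0.32 and was -0.042 with limma-voom and -0.12 without control replicates 1 and 4. Ears2 ran from -0.00063 to 0.24, Nars2 from -0.45 to 0.055, Vars2 from -0.077 to 0.20, Wars2 from -0.47 to 0.042 and Rars2 from -0.27 to 0.14, with Rars2 at 0.0097 after thinning. Pars2 was 0.12 with limma-voom and 0.012 without control replicates 1 and 4.

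Same-numbered samples share only a number. The correlation of their deviations was 0.04, -0.0034, 0.04 and 0.07 for numbers 1 to 4. The replicate block gave 509 genes in all and 3 cytosolic genes, with Aars lost (adjusted p = 0.0613), 14 genes of the neighbouring lists against 12, and 3 pairs with every within-number difference above 0. Low counts limit the mitochondrial genes most: 9 of 16 had a standard error above the largest of the cytosolic set.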

Other observations

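The 4 cytosolic synthetase genes that rose charge alanine, asparagine, serine, and glutamate with proline, amino acids that mice can make. This grouping was chosen after the values were seen, so it carries no test. Of the 9 cytosolic genes for such amino acids (Aars, Cars, Dars, Eprs, Gars, Nars, Qars, Sars and Yars), 4 rose, and the median log2 value was 0.56. Of the other 11 genes, which charge amino acids taken from the diet and, with Rars, arginine, 0 rose, with a median of 0.31. Over all genes tested 2.54% rose, so a group of 11 genes can give 0 calls at that share. Within the first group Dars and Yars had values of 0.20 and 0.14, and in the other group Wars had 0.87 (adjusted p = 0.0810 by edgeR), above the called Sars, Nars and Aars, so the grouping does not hold for each gene.

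Genes of the synthesis of asparagine and serine are set here beside the synthetases of these amino acids. Asns, the asparagine synthetase gene, was at 32.2, 44.8, 29.7 and 43.3 CPM in the control and 90.0, 102, 96.3 and 92.1 CPM in the knockout (log2 fold change 1.34 ± 0.17, edgeR adjusted p = 0.000228), while Nars, which loads the asparagine, had 0.74. Phgdh and Psat1, genes of serine synthesis, had log2 fold changes of 0.84 ± 0.13 and 0.55 ± 0.14 (edgeR adjusted p = 0.000871 and 0.0348), while Sars had 0.82. Asns, Phgdh and Psat1 belong to the ATF4 reference list, made with the rise of that programme known, and were chosen after their values were seen.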
